A study of Homo sapiens with 5 samples.

Results

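The microphthalmia family of transcription factors was followed through 5 RNA-seq libraries of pigment cells in which the chromatin remodelling factor BPTF had been silenced. Its 4 members, MITF, TFE3, TFEB and TFEC, were chosen by name as members of the family, by a rule that uses no measured value, though with earlier results of these data known. They are 4 of the 31029 genes listed for both cell lines. Of these libraries, 2 came from 501Mel, a human melanoma line, and 3 from Hermes 3A, an immortalised human melanocyte line. Cells of both lines carried a lentivirus for an shRNA against BPTF and were kept under puromycin, and nothing in the labels separates the groups other than the line. Counts from shControl or shMITF cells were not analysed here, so each value describes cells with BPTF silenced and none is an effect of the silencing. Hermes 3A cells were grown with TPA, cholera toxin, stem cell factor and endothelin-1, so that line and growth medium cannot be told apart. The labels do not say that replicates were separate cultures, nor which of the study's shBPTF constructs a library carried, and p-values then measure the spread between these samples only.

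The members are basic helix-loop-helix leucine zipper proteins that bind, as homodimers or as heterodimers with each other, to E-box elements in DNA. MITF directs the melanocyte lineage and its pigment genes, and BPTF, the largest subunit of the remodelling complex NURF, is known as one of its cofactors. TFEB and TFE3 drive genes of lysosomes and autophagy and are held in the cytoplasm by mTORC1 signalling through the Rag GTPases and folliculin, whereas TFEC is best known from macrophages.

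The 4 genes lie on 4 chromosomes. In GENCODE 29, on build GRCh38, MITF (ENSG00000187098) spans chr3:69739435-69968337 on the plus strand, TFE3 (ENSG00000068323) spans chrX:49028726-49043486, TFEB (ENSG00000112561) spans chr6:41683978-41736259 and TFEC (ENSG00000105967) spans chr7:115935148-116159896, the last 3 on the minus strand. MITF is annotated with 18 transcripts from 15 start sites, TFEB with 17 from 14, TFEC with 9 from 7 and TFE3 with 5 from 5. The counts are per gene, so that the melanocyte form of MITF and the forms started at its other promoters are added together. No gene of that annotation shares exon bases with a member, and the genes antisense to MITF and TFEB, RN7SL418P and AL035588.1, had at most 1 and 3 counts in any library.

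How alike the members are in sequence bears on whether their reads can be told apart. The most similar stretch of their coding sequences is shown for 1 transcript of each member, joined across an exon junction, with capitals at the 53 of 75 positions where all 4 genes carry the same base.
MITF: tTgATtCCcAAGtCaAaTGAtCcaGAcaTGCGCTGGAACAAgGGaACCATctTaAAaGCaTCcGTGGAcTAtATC
TFE3: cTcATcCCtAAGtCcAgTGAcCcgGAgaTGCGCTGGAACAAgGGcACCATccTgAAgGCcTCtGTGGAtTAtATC
TFEB: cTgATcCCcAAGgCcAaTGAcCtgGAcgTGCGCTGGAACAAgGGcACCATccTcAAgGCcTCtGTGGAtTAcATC
TFEC: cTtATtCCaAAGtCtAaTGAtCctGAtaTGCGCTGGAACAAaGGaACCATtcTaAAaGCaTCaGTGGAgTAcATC
Over this stretch MITF shared 63 bases with TFEC and 59 each with TFE3 and TFEB. The MITF stretch is bases 1009 to 1083 of the coding sequence of MITF-209, in exons 8 and 9 at chr3:69956508-69959324 of GRCh38 on the plus strand. The others lie on the minus strand, for TFE3 at chrX:49031493-49033487, for TFEB at chr6:41686186-41687116 and for TFEC at chr7:115941989-115950896. Over all annotated transcripts in full, the longest run of identical bases shared by any pair of members was 25, between TFEB and TFE3. No pair with MITF shared more than 17.

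The libraries held between 30073071 and 43032311 counts, so that 3 counts correspond to 0.0697 to 0.0998 CPM, the counts of a gene per 1000000 counts of the library. Counting intervals given here cover counting error only. The tables of the lines list different genes, 6230 only for 501Mel and 3004 only for Hermes 3A, which hold at most 0.712% of a library's counts. The annotation used for counting may therefore have differed, and it cannot be told apart from the line. Across 23 genes every 501Mel library was at 0 while every Hermes 3A library was at 10 CPM or more, and 5 genes showed the opposite. The library protocol also treated cDNA with a duplex-specific nuclease, which lowers abundant sequences, so that levels compared between genes are levels after that step.

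Both lines carried the markers of their lineage. The summed level of SOX10, PMEL, MLANA, TYR, DCT and TYRP1 was 12016 to 18807 CPM in 501Mel and 30973 to 32085 CPM in Hermes 3A, and none was at 0 in any library. DCT, dopachrome tautomerase, departed from the others with 1068 and 1300 CPM in 501Mel against 7.37 to 13.1 CPM in Hermes 3A. The 5 fibroblast markers summed to 4.23 to 17.7 CPM in 501Mel and 78.3 to 190 CPM in Hermes 3A, where COL1A2 gave most of the sum and DCN stayed at or below 0.0489 CPM. Of the myeloid markers, PTPRC was at or below 0.0465 CPM and CSF1R at or below 0.665 CPM in every library, while ACP5 gave 89.8 to 118 CPM and CD68 was at 95.2 and 34.4 CPM in 501Mel against at most 0.269 CPM in Hermes 3A. The endothelial markers VWF and CDH5 summed to at most 0.612 CPM, and PECAM1 was listed for neither line. Of the 4 keratinocyte markers, KRT5 and KRT1 were listed for neither line, so that their levels are not known. KRT14 was listed only for 501Mel, at or below 0.0264 CPM, and KRT10 gave 32.6 to 47.4 CPM. The part of these differences in the results that follow was not tested.

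BPTF, the silenced gene, gave 65.8 and 57.8 CPM in 501Mel and 45.8, 51.6 and 54.1 CPM in Hermes 3A, a log2 ratio of 0.23 (SE 0.139, adjusted p = 0.208, edgeR's quasi-likelihood test with Benjamini-Hochberg adjustment). Without control libraries these levels do not check the knockdown.

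MITF was among the genes with the most counts in both lines. Its level was 702 and 854 CPM in 501Mel and 643, 674 and 678 CPM in Hermes 3A, from 20379 to 32338 counts. By counts, with no correction for length, it ranked 101 and 82 among the genes of the 501Mel libraries and 156, 132 and 142 among those of Hermes 3A. On total counts both 501Mel libraries thus lay above all 3 of Hermes 3A, with means of 778 ± 108 CPM (SD, n = 2) and 665 ± 19.0 CPM (SD, n = 3). This separation depended on the scaling. With the TMM factors used in the fit, 501Mel replicate 1 fell within the range of Hermes 3A. The log2 ratio of 501Mel over Hermes 3A was 0.17 (SE 0.163, 95% interval -0.22 to 0.55), which did not pass edgeR's quasi-likelihood test (adjusted p = 0.429). Without 501Mel replicate 2 the direction turned, at -0.01 (adjusted p = 0.968, edgeR). The interval of the fold over all libraries, 0.860 to 1.46, lies inside a 2-fold change either way. Replicates of Hermes 3A were close, with an SD of 0.0284 on the log2 scale against a median of 0.160 over 500 genes of like level, and the SD of the 2 libraries of 501Mel was 0.220 against 0.145.

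TFE3, a partner of MITF encoded on the X chromosome, was the next most abundant member and stood at nearly the same level throughout. Its values were 76.0 and 78.7 CPM in 501Mel and 70.6, 77.6 and 80.9 CPM in Hermes 3A, and the groups overlapped. The means were 77.3 ± 1.91 CPM (SD, n = 2) and 76.4 ± 5.30 CPM (SD, n = 3). The log2 ratio was -0.04 (SE 0.128, 95% interval -0.34 to 0.26, adjusted p = 0.802 by edgeR's quasi-likelihood test), and its sign turned with library size alone and with protein-coding genes only, at 0.03 in both.

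TFEB, the member best known as the regulator of lysosome formation, was low in both lines and higher in the melanoma line. It had 305 and 453 counts in 501Mel, or 7.09 and 11.97 CPM, and 78, 146 and 135 counts in Hermes 3A, or 1.87, 3.57 and 4.49 CPM. The lowest 501Mel library lay above the highest of Hermes 3A, and their counting intervals, 6.31 to 7.93 CPM and 3.76 to 5.31 CPM, did not meet. The log2 ratio was 1.48 (SE 0.425, 95% interval 0.48 to 2.48), a fold of 2.79 with an interval of 1.39 to 5.57 (adjusted p = 0.0243, edgeR's quasi-likelihood test). Without 501Mel replicate 2 the log2 ratio was 1.02 (adjusted p = 0.156) and without Hermes 3A replicate 2 it was 1.47 (adjusted p = 0.0668), so that the call was lost without either. In the fit without 501Mel replicate 2, 501Mel is a single library, which is assumed to vary like those of Hermes 3A. The spread within the lines was wide, with a log2 SD of 0.551 in 501Mel and 0.599 in Hermes 3A, against medians of 0.240 and 0.400 over 500 genes of like level.

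TFEC was at the floor of detection. It had 2 and 0 counts in 501Mel and 8, 3 and 2 counts in Hermes 3A, so that it did not enter the test. The library with 0 counts allows a level of up to 0.0792 CPM by the floor of 3 counts, and its two-sided exact 95% interval, drawn in the plot of levels by library, reaches 0.0974 CPM. Summed over libraries, 2 of 80888986 counts in 501Mel and 13 of 112591189 in Hermes 3A gave a ratio of Hermes 3A over 501Mel of 4.67, with an exact counting interval of 1.06 to 42.6 that leaves out the spread between libraries.

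Of the 3 members tested, 1 was called between the lines, at an adjusted p under 0.05 and a change of at least 2-fold, where 34.3% of all 17975 genes tested were called in either direction and 17.2% were higher in 501Mel. CPM of total counts did not overlap between the lines for MITF and TFEB. With the TMM scaling of the fit, TFEB alone of the 3 kept the lines apart, where 69.6% of all genes tested did. Neither result sets the family apart from other genes.

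**Figure D1:**
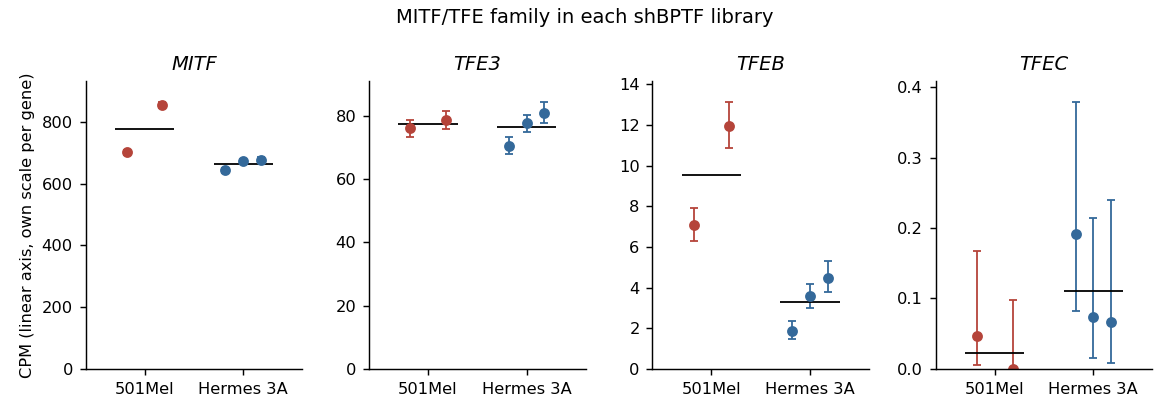
Level of each member in CPM of total counts, without TMM scaling (y axis, linear from 0, with its own scale for each gene), in the 2 libraries of 501Mel and the 3 of Hermes 3A. Points are libraries, vertical bars are exact 95% counting intervals and horizontal lines are group means; both 501Mel libraries lie above Hermes 3A for MITF and TFEB, the groups overlap for TFE3, and TFEC stays below 0.2 CPM.

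**Figure D2:**
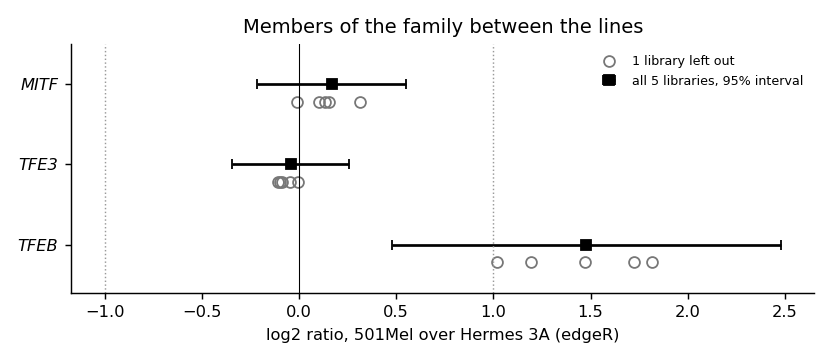
Log2 ratio of 501Mel over Hermes 3A (x axis) for the 3 members that entered the test. Squares with bars are the edgeR estimates with 95% intervals, open circles the estimates with 1 library left out, and dotted lines mark a 2-fold change; the interval of TFEB runs from 0.48 to 2.48, and those of MITF and TFE3 include 0.

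The order of the members was then compared on a scale per length, as CPM per kilobase of the merged exons of a gene. MITF stood at 108 ± 14.97 in 501Mel and 92.6 ± 2.64 in Hermes 3A, TFE3 at 18.1 ± 0.446 and 17.8 ± 1.24, and TFEB at 1.69 ± 0.611 and 0.586 ± 0.235 (SD, n = 2 and 3). TFEC came last with 0.00269 and 0.0128. In this order no neighbouring members overlapped in any library, and the order was the same in both lines.

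As a share of the family on that scale, MITF held 83.7% and 85.3% in 501Mel and 84.2%, 83.3% and 82.7% in Hermes 3A. These ranges overlapped, and the difference of the means was 1.11 percentage points (SE 0.799, p = 0.4, exact two-sided permutation test). TFE3 held 15.2% and 13.2% in 501Mel and 15.5%, 16.1% and 16.6% in Hermes 3A, where its share was larger in every library. TFEB held 1.07% and 1.52% in 501Mel and 0.312%, 0.562% and 0.697% in Hermes 3A, a difference of 0.773 percentage points (SE 0.221). For TFE3 and TFEB the exact permutation test gave p = 0.2, the smallest that 2 against 3 libraries allow. With no correction for length, MITF took 88.8% to 90.4% of the family's counts, so that its lead did not rest on the length used.

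Ratios within a library need neither length nor scaling between libraries. There were 9.24 and 10.9 MITF counts for each TFE3 count in 501Mel and 9.11, 8.68 and 8.37 in Hermes 3A. The 501Mel values lay above the others, by 0.20 on the log2 scale (SE 0.0979, p = 0.2, exact two-sided permutation test). For each TFEB count there were 99.1 and 71.4 MITF counts in 501Mel and 343, 189 and 151 in Hermes 3A, a log2 difference of -1.34 (SE 0.488, p = 0.2, exact permutation test). TFE3 counts for each TFEB count were 10.7 and 6.57 in 501Mel and 37.7, 21.7 and 18.03 in Hermes 3A. Among the 3 members above the floor, TFEB thus had the place that differed most between the lines, and in neither line did its counts reach those of TFE3.

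**Figure D3:**
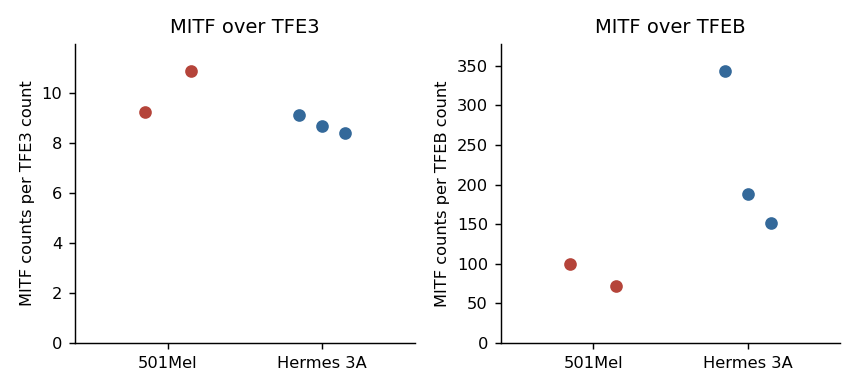
MITF counts for each TFE3 count (left) and for each TFEB count (right), on linear axes from 0, with 1 point for each library. MITF over TFE3 runs from 8.37 to 10.9 in all libraries, and MITF over TFEB lies between 71.4 and 99.1 in 501Mel and between 151 and 343 in Hermes 3A.

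Several genes followed the course of MITF or TFE3 across the 5 libraries closely. Measured as the root mean square difference of centred log2 CPM among 13865 protein-coding genes, the nearest to MITF were SMAD2 (0.0244), TEFM (0.0315) and SPTLC2 (0.0339). The nearest to TFE3 were XPO7 (0.0227), ELOF1 (0.0295) and VPS51 (0.0298). Within a wider limit of 0.1 lay 225 genes for MITF (1.62%) and 351 for TFE3 (2.53%), so the genes named are the nearest of many. That limit is absolute on the log2 scale, which favours members that varied little between libraries, and TFEB varied widely. No gene lay within 0.1 of TFEB, and its nearest, ELAVL2 (0.150), CCDC144A (0.151) and NLRC4 (0.170), were all below 2 CPM in every library.

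The genes known to control MITF transcription were taken next. Of 11 such factors 5 were called, 2 higher and 3 lower in 501Mel, or 45.5% of the list against 34.3% of all genes tested. With 10 counts required in every library 3 were called, since FOXD3 and SOX9 did not pass that filter and were not tested. The median log2 ratio was -0.23 against 0.02 over all genes tested. ONECUT2, a homeodomain factor, stood at 53.4 and 72.2 CPM in 501Mel and 5.45, 8.34 and 8.01 CPM in Hermes 3A, a log2 ratio of 3.06. SOX5, a SOX factor without an activation domain, was at 73.0 and 44.8 CPM against 10.9, 26.0 and 23.7 CPM, a log2 ratio of 1.49. FOXD3, a neural crest factor known to repress MITF, had 0 counts in both 501Mel libraries and 31.8, 42.1 and 57.7 CPM in Hermes 3A, at least 1145-fold lower in 501Mel against a floor of 3 counts over the group. That bound covers counting error only. FOXD3 belongs to the 23 genes at 0 in 501Mel given above, for which line and the annotation used for counting cannot be told apart.

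PAX3, a direct activator of MITF, was at 68.1 and 71.8 CPM in 501Mel and 127, 153 and 156 CPM in Hermes 3A, a log2 ratio of -1.12 (adjusted p = 0.000884, edgeR). SOX9 was below 2.1 CPM in every library, with a log2 ratio of -4.32. SOX10, the lineage factor that acts with PAX3 on the MITF promoter, was at 319 and 334 CPM against 471, 517 and 513 CPM. Its log2 ratio of -0.68 had an adjusted p of 0.00681 in edgeR's test but was under 2-fold. The smallest ratios were those of POU3F2, the BRN2 factor, at 0.02 (adjusted p = 0.978), CTNNB1, or beta-catenin, at -0.23 (adjusted p = 0.376) and ZEB2 at -0.52 (adjusted p = 0.0663). PAX3 and SOX10 thus stood lower in both 501Mel libraries than in any of Hermes 3A, while MITF did not.

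The proteins that hold the family in the cytoplasm or release it gave few calls. Among 29 regulators, including folliculin, the Rag GTPases, the Ragulator subunits, subunits of mTORC1 and calcineurin and the 14-3-3 protein YWHAZ, 2 were called, with a median log2 ratio of -0.01. That is 6.90% of the list against 34.3% of all genes, and 1 was called without 501Mel replicate 1, Hermes 3A replicate 2 or Hermes 3A replicate 3. XPO1, the nuclear export receptor, was at 621 and 552 CPM in 501Mel and 304, 243 and 231 CPM in Hermes 3A, a log2 ratio of 1.11 (adjusted p = 0.00280, edgeR). MCOLN1, the lysosomal calcium channel that activates calcineurin, was at 26.8 and 40.6 CPM against 65.9, 91.3 and 77.6 CPM, a log2 ratio of -1.27 (adjusted p = 0.00342, edgeR). Several other regulators, in both directions, had an adjusted p under 0.05 in edgeR's test but differed by less than 2-fold. Ratios closest to 0 were found for PPP3CB, a catalytic subunit of calcineurin, at -0.00 (SE 0.223), TSC1, an inhibitor of mTORC1 signalling, at -0.01 (SE 0.153) and YWHAZ at 0.02 (SE 0.182).

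Known targets of MITF in the pigment cell differed widely and in both directions while MITF itself gave no call. Of 15 pigment and lineage targets 9 were called, 3 higher and 6 lower in 501Mel, where 34.3% of all genes were called in either direction. The count was 5 without 501Mel replicate 1 and 12 without 501Mel replicate 2. The median log2 ratio was -0.97. SLC45A2, a melanosomal transporter, was at 683 and 1143 CPM in 501Mel and 3.19, 7.05 and 7.42 CPM in Hermes 3A, a log2 ratio of 7.24. DCT had a log2 ratio of 6.87, and BIRC7, an inhibitor of apoptosis, of 6.72, from 48.6 and 32.3 CPM against 0.168, 0.343 and 0.632 CPM. The study names BIRC7 among the genes lowered by silencing of BPTF and of MITF in 501Mel.

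In the other direction OCA2, a melanosomal chloride channel, was at 66.0 and 103 CPM in 501Mel and 652, 700 and 687 CPM in Hermes 3A, a log2 ratio of -3.07. MC1R, the receptor of melanocyte-stimulating hormone, was at 1.70 and 3.25 CPM against 10.6, 16.0 and 13.1 CPM, a log2 ratio of -2.47. The smallest ratios were those of GPR143 at -0.29 (adjusted p = 0.383), GPNMB at -0.29 (adjusted p = 0.379) and TRPM1 at -0.62 (adjusted p = 0.165, edgeR), and the values of each overlapped between the lines. Each of the 5 called genes named had an edgeR adjusted p of at most 0.00191.

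Of 15 targets of MITF in the cell cycle, survival and metabolism 9 were called, 4 higher and 5 lower, where 17.2% of all genes were higher and 17.1% lower. The median log2 ratio was -0.04. The study names SHB, BCL2A1, NPM1 and PPARGC1A as lowered by BPTF silencing in 501Mel, and AURKB and CCND1 in Hermes 3A. All of these were called here. The list thus rests in part on results of the same study, and its share of calls is no separate finding. AURKB, a mitotic kinase, was at 76.4 and 63.2 CPM in 501Mel and 9.27, 3.18 and 6.58 CPM in Hermes 3A, a log2 ratio of 3.38. PPARGC1A, a coactivator of mitochondrial genes, was at 62.0 and 93.5 CPM against 9.51, 7.17 and 8.18 CPM, a log2 ratio of 3.16. ANLN, a protein of the contractile ring, had a log2 ratio of 3.09, with 38.6, 6.19 and 18.2 CPM in Hermes 3A.

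CDKN1A, which encodes the cell cycle inhibitor p21, had 0 counts in both 501Mel libraries and 801, 774 and 1131 CPM in Hermes 3A. That is at least 23710-fold lower in 501Mel against a floor of 3 counts over the group, a bound that covers counting error only. CDKN1A too is among the 23 genes given above, for which line and the annotation used for counting cannot be told apart. SHB, an adaptor protein, was at 3.28 and 2.11 CPM against 14.9, 25.5 and 31.0 CPM, a log2 ratio of -3.20. The smallest ratios were those of MET at -0.04 (adjusted p = 0.919), HIF1A at 0.18 (adjusted p = 0.444) and DIAPH1 at 0.36 (adjusted p = 0.143, edgeR). Neither gene at 0 lies at the middle of its list, so that setting it to its bound leaves the medians as given.

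The lysosome and autophagy targets of TFEB and TFE3 lay to the other side from TFEB. Of 23 targets 22 entered the test, and 12 were lower in 501Mel and 0 higher, where 17.1% of all genes were lower. Their median log2 ratio was -1.07. CTSD, the protease cathepsin D, was at 148 and 238 CPM in 501Mel and 1535, 1414 and 1451 CPM in Hermes 3A, a log2 ratio of -2.99 (SE 0.268, adjusted p = 0.000223, edgeR). GLA, the alpha-galactosidase of Fabry disease, was at 29.9 and 32.7 CPM against 158, 120 and 103 CPM, a log2 ratio of -2.09.

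GAA, the lysosomal alpha-glucosidase, was at 47.5 and 42.3 CPM in 501Mel and 90.7, 145 and 159 CPM in Hermes 3A, a log2 ratio of -1.61. WIPI1, an autophagosome protein, had a log2 ratio of -1.55, and MCOLN1 belongs to this list as well. The smallest ratios were those of CTSB at -0.08 (adjusted p = 0.723), UVRAG at 0.33 (adjusted p = 0.139) and MAP1LC3B at -0.37 (adjusted p = 0.305, edgeR). UVRAG was the only one of the 22 with a positive log2 ratio, and both of its 501Mel libraries were above those of Hermes 3A.

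Other factors of the same structural class, which bind E-boxes but belong to other families, were compared in the same way. Of 9 tested 3 were lower and 0 higher in 501Mel, or 33.3%, close to the 34.3% of all genes called in either direction. The count fell to 1 in 6 alternatives, among them those without 501Mel replicate 1 and without Hermes 3A replicate 3. The median log2 ratio was -0.65. SREBF1, a regulator of lipid synthesis, was at 47.3 and 50.5 CPM in 501Mel and 115, 205 and 212 CPM in Hermes 3A, a log2 ratio of -1.91. MNT, a partner of MAX, had a log2 ratio of -1.03 and USF2 of -1.02, close to the 2-fold limit. USF1, which has been linked to pigmentation genes, was near 0 at 0.01 (SE 0.146), with SREBF2 at -0.20 (SE 0.217) and TFAP4 at 0.30 (SE 0.204).

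**Figure D4:**
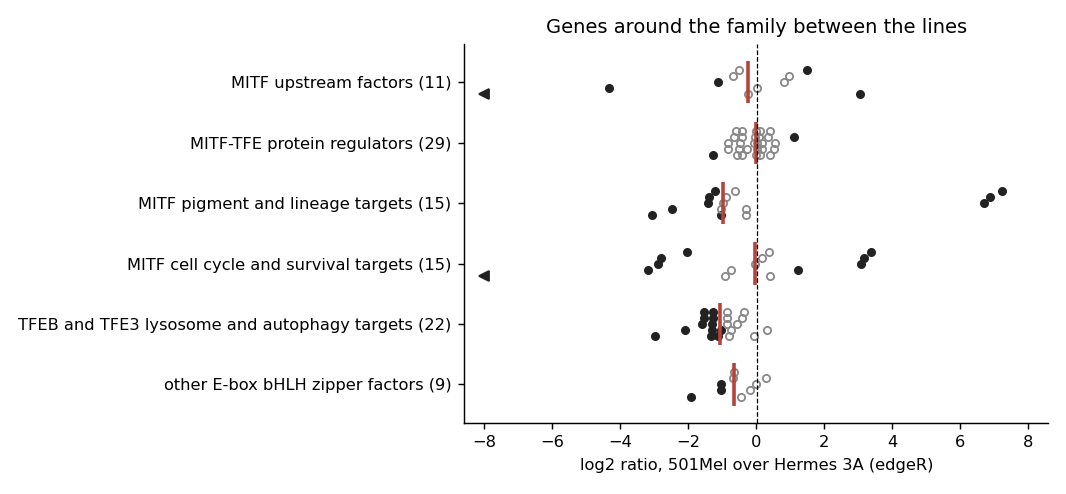
Log2 ratio of 501Mel over Hermes 3A (x axis) for each tested gene of the 6 lists, with the number tested after each name. Filled circles are called genes, open circles are not called, red lines are list medians, the dashed line is the median of all genes and triangles at the left edge are FOXD3 and CDKN1A, which had 0 counts in 501Mel; the medians run from -1.07 for the lysosome and autophagy targets to -0.01 for the protein regulators.

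The proximal promoters of the target genes were searched for the elements that the family binds. Promoters of RefSeq on GRCh38.p14, from 250 bases before to 50 bases after a gene's start, were searched on both strands for CATGTG, the core of the pigment gene element, and for CACGTG, the palindromic core of the lysosomal element. CATGTG was found in 9 of the 13 pigment target promoters that had an entry (69.2%), and in 11.2% of all 27305 promoters. CACGTG was found in 9 of 15 lysosome and autophagy target promoters (60%), and in 7.43% of all. The longer GTCACGTG, which contains CACGTG, was in 7 of those 15 (46.7%) and in 2.53% of all. Many of these genes entered their lists because such elements are known in them, so these shares describe the lists and are no separate finding. None of the 3 elements was in the window of any of the 4 members, which covers 1 start site for each.

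Sites from called genes of both directions are shown so that their settings can be compared, each 24 bases long with the element in capitals, on the strand of the gene. The pigment gene sites are these.
OCA2: gggcggggcCATGTGggcagcttt
MC1R: cgcccccggCATGTGgccgccctc
BIRC7: tgcacagagCATGTGaccccagag
They lie at chr15:28099454-28099477 on the minus strand, chr16:89918789-89918812 on the plus strand and chr20:63235869-63235892 on the plus strand. The elements in capitals begin 153, 64 and 27 bases before the start of the gene. OCA2 and MC1R were lower in 501Mel and BIRC7 was higher, so that the same 6 bases stood in the promoters of genes that differed in opposite directions. The lysosomal gene sites are these.
CTSD: ggccgcgccCACGTGaccggtccg
GAA: cccgccggtCACGTGacccgcctc
MCOLN1: agaggcggtCACGTGaggggctct
They lie at chr11:1763960-1763983 on the minus strand, chr17:80101541-80101564 on the plus strand and chr19:7522574-7522597 on the plus strand. Their elements in capitals begin 47, 31 and 41 bases before the start. All 3 genes were lower in 501Mel, and all 3 are among the 7 whose promoters hold GTCACGTG on 1 strand or the other. A match is a description of the letters and does not show that a member of the family was bound there in these cells.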

How the data were processed

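Libraries were made from rRNA-depleted total RNA with nuclease normalization. The authors deposited whole-number read counts per gene, without normalization, under Ensembl identifiers. Per the submitters' processing notes, CASAVA 1.8, TopHat 1.4.1 and Bowtie 0.12.7 were used with hg19. The counting program, its annotation and its use of strand are not given in the sources used here. Names, positions and exon lengths were taken from GENCODE 29 (GRCh38), so no hg19 coordinate is given. A name was found for 36899 of 40263 identifiers.

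Samples were grouped by the cell line in the labels. Genes listed for both lines were fitted with edgeR 4.0.16 (R 4.3.3; TMM, filterByExpr, quasi-likelihood test, Benjamini-Hochberg over 17975 genes). Calls needed an adjusted p under 0.05 together with a log2 ratio of 1 or more in size. CPM used total counts. Shares and ratios were compared by exact two-sided permutation tests. The members and lists were chosen with earlier results of these data known. Of a list, at most 5 called genes with the largest log2 ratios and 3 others with the smallest were named, besides the lineage marker SOX10. Of the genes so chosen, 1 is not reported here. The likeness measure used log2 CPM with a prior count of 2. Exact 95% intervals and floors of 3 counts cover counting error only. Replicates differed beyond counting noise (chi-square per gene of at least 12.8) and none were merged. Alternatives were DESeq2 1.42.0, limma 3.58.1 (voom), other filters and scalings, a replicate block and leaving out each library. The fit was tested on simulated data.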

Additional observations from a re-analysis of the deposited data

How the results depend on the processing

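TFEB was called in 12 of 14 alternatives. With 1 library left out its log2 ratio ran from 1.02 to 1.82, and the call was lost without 501Mel replicate 2 and without Hermes 3A replicate 2, where 1 sample fewer was fitted. MITF and TFE3 were called in none of their 14 alternatives. The sign of MITF turned without 501Mel replicate 2, with a range over left-out libraries of -0.0118 to 0.312, and that of TFE3 turned with library size alone (0.0253) and with protein-coding genes only (0.0320), a choice made after seeing the data. The other choices made then were unlisted genes set to 0 and the longest transcript as length. With 10 counts required in every library 3875 genes were called (1977 higher and 1898 lower in 501Mel) rather than 6157 (3089 and 3068), since fewer genes were tested. That filter left 3 called upstream factors rather than 5, since FOXD3 and SOX9 did not pass it. Called E-box factors of other families were 1 rather than 3 with library size alone, with 10 counts in every library, with the replicate block and with protein-coding genes only. Over left-out libraries they ran from 1 to 3, called protein regulators from 1 to 2 and called pigment targets from 5 to 12, the lowest without 501Mel replicate 1. No share or ratio within the family changed sign. Replicate numbers are shared between the lines, but only as numbers (correlation of deviations 0.122 over 17975 genes). With the replicate block, TFEB had a log2 ratio of 1.76 (adjusted p = 0.0111, edgeR), MITF of 0.17 and TFE3 of -0.00, and 5632 genes were called. With 2 and 3 libraries no exact permutation test could go below 0.2, and depth limits TFEC.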
